A study of Homo sapiens with 15 samples.

Results

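Ribosome biogenesis and nucleolar genes were followed in Molm-13, an established acute monocytic leukemia cell line that carries an internal tandem duplication of FLT3. The set held 44 named genes, matched by symbol to the 20375 genes of the deposited expression table, and no ribosomal protein gene was among them. Polyadenylated RNA was sequenced from 15 libraries in 5 groups of 3. In the FL-Fc-DM1 groups, cells received cytarabine at 0.5 µM or 1 µM for 3 days and then FL-Fc-DM1 at 1 nM for 24 hours, with the cytarabine removed. In the cytarabine groups, cells received cytarabine at 0.5 µM or 1 µM for 4 days, and control cells were cultured for 4 days with neither agent. All groups were the wild-type line in the same medium. Cytarabine is a nucleoside analog that blocks DNA synthesis. FL-Fc-DM1 is, as background, an Fc fusion of FLT3 ligand that carries the tubulin binder DM1, although the labels give the name alone. A treatment text in the labels names THP-1 cells for the FL-Fc-DM1 groups, whereas their titles and cell line entries name Molm-13. No group had cytarabine removed without FL-Fc-DM1, so removal of one agent and addition of the other cannot be told apart in any comparison of an FL-Fc-DM1 group with a cytarabine group. No library was taken after 3 days of cytarabine, so the level before FL-Fc-DM1 was not measured. Words such as rise and fall therefore name differences between groups and not a course in time.

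Ribosomes are built in the nucleolus, where RNA polymerase I transcribes a long precursor that is folded, cut and modified into the rRNAs of the small (40S) and large (60S) subunits. Small nucleolar ribonucleoproteins (snoRNPs) guide the chemical modification, the small-subunit processome assembles on the nascent precursor, and separate factors carry each subunit through maturation and export. Production scales with growth and division, and many genes of the pathway are described targets of the transcription factor MYC, which binds the E-box, a short palindromic DNA motif.

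The promoters of these genes are shown first because the E-box recurs in them next to the start of transcription. RefSeq promoters (GRCh38.p14, 250 bases before to 50 after each listed start) were matched by symbol for 37 of the 44 genes. The 7 others are RRP12, NOP58, NOLC1, BOP1, RRS1, RRP1B and DDX18. The E-box letters CACGTG, which read the same on both strands, occurred in 17 of the 37 genes (45.9%), against 12.8% of the 9934 tested genes with a promoter. All 17 had the motif within 50 bases of a start, a position it held in 5.38% of the tested genes. In 12 of the 17 it began at or after the start and in 5 before it. The FBL promoter, with the first 30 transcribed bases at its end, is printed 5′ to 3′ with the E-box in capitals, because FBL, the methyltransferase of box C/D snoRNPs, stood lowest against control of all 44 genes in both FL-Fc-DM1 groups (chr19:39846350-39846629, minus strand).
FBL promoter: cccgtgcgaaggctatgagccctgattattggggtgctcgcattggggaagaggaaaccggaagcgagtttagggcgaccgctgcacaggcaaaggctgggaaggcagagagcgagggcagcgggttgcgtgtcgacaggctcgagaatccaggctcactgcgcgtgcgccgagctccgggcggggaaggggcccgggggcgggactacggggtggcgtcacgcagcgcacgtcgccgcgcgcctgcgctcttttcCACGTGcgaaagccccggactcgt
The windows around the E-box of 10 other genes with one, those whose library values are given with the results, follow, each on the strand of its gene, with the E-box in capitals. They lie at chr2:28894658-28894687 (WDR43, plus strand), chr4:2963374-2963403 (NOP14, minus), chr12:101280083-101280112 (UTP20, plus), chr6:143843354-143843383 (LTV1, plus), chr2:68157885-68157914 (PNO1, plus), chr4:109815781-109815810 (GAR1, plus), chr3:52686026-52686055 (GNL3, plus), chr17:35142274-35142303 (NLE1, minus), chr10:68956604-68956633 (DDX21, plus) and chr14:24188828-24188857 (IPO4, minus).
WDR43: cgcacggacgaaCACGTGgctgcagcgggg
NOP14: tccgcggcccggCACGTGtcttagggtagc
UTP20: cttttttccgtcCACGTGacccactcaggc
LTV1: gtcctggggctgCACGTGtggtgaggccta
PNO1: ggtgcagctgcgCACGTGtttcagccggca
GAR1: gggccagaggggCACGTGgcgccggtgagt
GNL3: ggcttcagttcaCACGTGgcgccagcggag
NLE1: ctctttctcctcCACGTGgggacgcaggat
DDX21: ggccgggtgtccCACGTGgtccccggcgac
IPO4: tgtcagaacctcCACGTGctgtccctcccc

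UTP4, RRP9, BYSL, PES1, NOP2 and MYBBP1A make up the rest of the 17. The promoter windows of NPM1 and NCL, which gave the highest counts of the set, do not hold these letters. A motif of ETS factors, CCGGAAG or CTTCCGG, occurred in 15 of the 37 genes (40.5%) and in 23.0% of the tested genes, and the median GC content was 62.7% in the gene set and 64.3% in the tested genes. A match is a description of the letters and does not show binding.

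**Figure D1:**
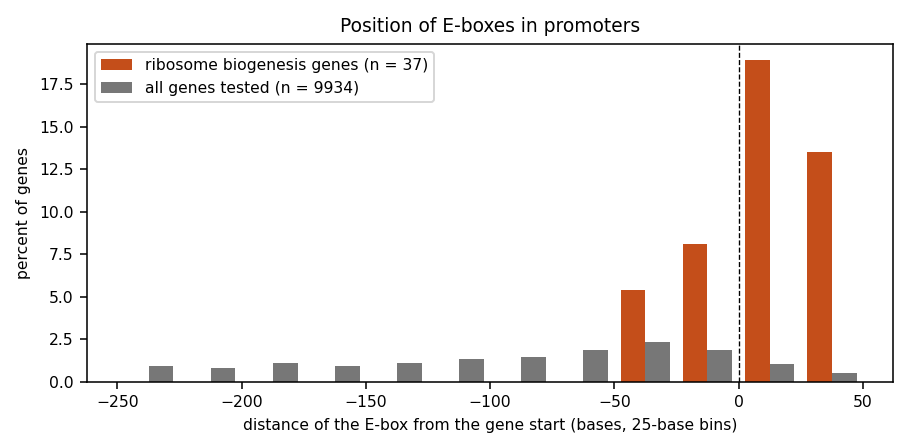
Distance of the E-box from the gene start, in bases (x axis, 25-base bins, negative before the start), against the percent of genes with an E-box in that bin (y axis), for the 37 ribosome biogenesis genes with a promoter and for 9934 tested genes. In the ribosome biogenesis genes every E-box lies within 50 bases of a start, most often in the first 25 bases after it (18.9% of genes, against 1.057% of tested genes).

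Libraries held 10858017 to 16965626 counts, and replicates correlated at 0.986 to 0.997 (Pearson's r within a group across genes, which are not independent replicates). Whether replicate libraries were separate cultures is not stated, so a p-value reflects spread among these libraries alone, possibly technical. The line's own markers CD33, SPI1, CEBPA and FLT3 were expressed in every group. Others of its 12 listed markers were uneven. CD14 was near absent in control (mean 0.23 CPM) and had means of 6.65 to 10.3 CPM in treated groups. ITGAM had 7.72 CPM in control and 62.3 to 183 CPM in treated groups. MPO went the other way, with 20.6 CPM in control and 3.87 to 6.03 CPM in treated groups. Of 12 markers of other cell types, EPCAM and PF4 had no count in any library, and without PECAM1, which monocytic cells also make, the summed level of the others reached at most 3.91 and 6.92 CPM in the FL-Fc-DM1 groups after 0.5 and 1 µM, 7.08 and 8.87 CPM in cytarabine at 0.5 and 1 µM, and 13.0 CPM in control. The T cell marker CD3D gave most of this sum in control (mean 11.6 CPM, 549 counts). Its means were 1.35 and 2.58 CPM in FL-Fc-DM1 after 0.5 and 1 µM, and 2.95 and 4.17 CPM in cytarabine at 0.5 and 1 µM. KRT8, VWF and COL1A1 were higher in treated groups, with means up to 1.72, 1.44 and 0.61 CPM. In bulk RNA, fewer cells of a kind and less RNA per cell cannot be told apart, and every level is relative to the library's total.

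All 44 genes fell after cytarabine at both doses in the fit of counts (43 at 1 µM by limma on TPM, WDR74 being the exception), and most of them were higher in the FL-Fc-DM1 groups than in the matching cytarabine group. Together they took 0.624% ± 0.009 of all counts in FL-Fc-DM1 after 0.5 µM, 0.537% ± 0.008 in FL-Fc-DM1 after 1 µM, 0.476% ± 0.006 in cytarabine at 0.5 µM, 0.423% ± 0.004 in cytarabine at 1 µM and 0.785% ± 0.011 in control (SD, n = 3 each). No library of one group overlapped a library of another in this share. In the following, a gene is called when edgeR's quasi-likelihood test, fitted once over all 15 libraries and 12355 genes, gave a Benjamini-Hochberg adjusted p under 0.05, levels are CPM, each gene's count scaled to its library's normalised total, and changes are log2 ratios with their standard error (SE). All 44 genes passed the filter on low counts, with 102 to 30369 counts in a library.

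With cytarabine at 0.5 µM, 44 of 44 genes were called lower than in control and none higher, where 35.2% of all tested genes were called lower and 38.0% higher. Their median log2 change was -0.65, with a range from -1.59 (UTP20) to -0.29 (WDR75), against a median of 0.03 over all tested genes. At 1 µM, 44 of 44 were again called lower, against 36.6% of tested genes lower and 39.3% higher, with a median of -0.85 and a range from -1.69 (UTP20) to -0.38 (WDR75). The fall reached 2-fold in 6 genes at 0.5 µM and in 12 at 1 µM. The share of all tested genes past 2-fold is not given, so these 2-fold counts are not read against a background. For a gene at the median, cytarabine left 63.9% of the control level at 0.5 µM and 55.3% at 1 µM.

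With FL-Fc-DM1 after 0.5 µM cytarabine, 42 of 44 genes were called higher than in cytarabine at 0.5 µM and none lower, where 22.0% of tested genes were called higher and 22.8% lower. The median log2 change was 0.46, against -0.02 over all tested genes, and WDR75 and NOB1 were not called. With FL-Fc-DM1 after 1 µM cytarabine, 37 were called higher than in cytarabine at 1 µM and 1 (NOB1) lower, where 23.5% of tested genes were called higher and 22.2% lower. The median was 0.43, against 0.00 over all tested genes, and WDR75, BYSL, FBL, NOP2, NLE1 and PPAN were not called. UTP20 was the single gene past 2-fold in both comparisons.

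Against control, FL-Fc-DM1 after 0.5 µM left 22 genes called lower and 5 called higher (RRP12, LTV1, NHP2, NOP16 and NCL), where 34.2% of tested genes were called lower and 35.0% higher. The higher calls were 3 without FL-Fc-DM1 replicate 1 or 2 or control replicate 1 or 3, and 2 by limma on TPM. The share of the 44 called higher, 5 genes, was thus under that background, and the lower calls were somewhat above it. FL-Fc-DM1 after 1 µM left 41 called lower and none higher, where 35.4% of tested genes were called lower and 35.8% higher, and UTP15, NHP2 and WDR74 were not called. A gene at the median stood at 91.1% of its control level in FL-Fc-DM1 after 0.5 µM, with a range from 50.3% (FBL) to 121% (RRP12), and at 72.8% in FL-Fc-DM1 after 1 µM, with a range from 42.6% (FBL) to 112% (WDR74). These comparisons share the control libraries with the cytarabine comparisons, and those with cytarabine share the FL-Fc-DM1 libraries. A fall with cytarabine and a rise with FL-Fc-DM1 use the same cytarabine libraries with opposite sign. Spread in those libraries therefore enters both, and the size of a fall and of a rise are not independent.

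**Figure D2:**
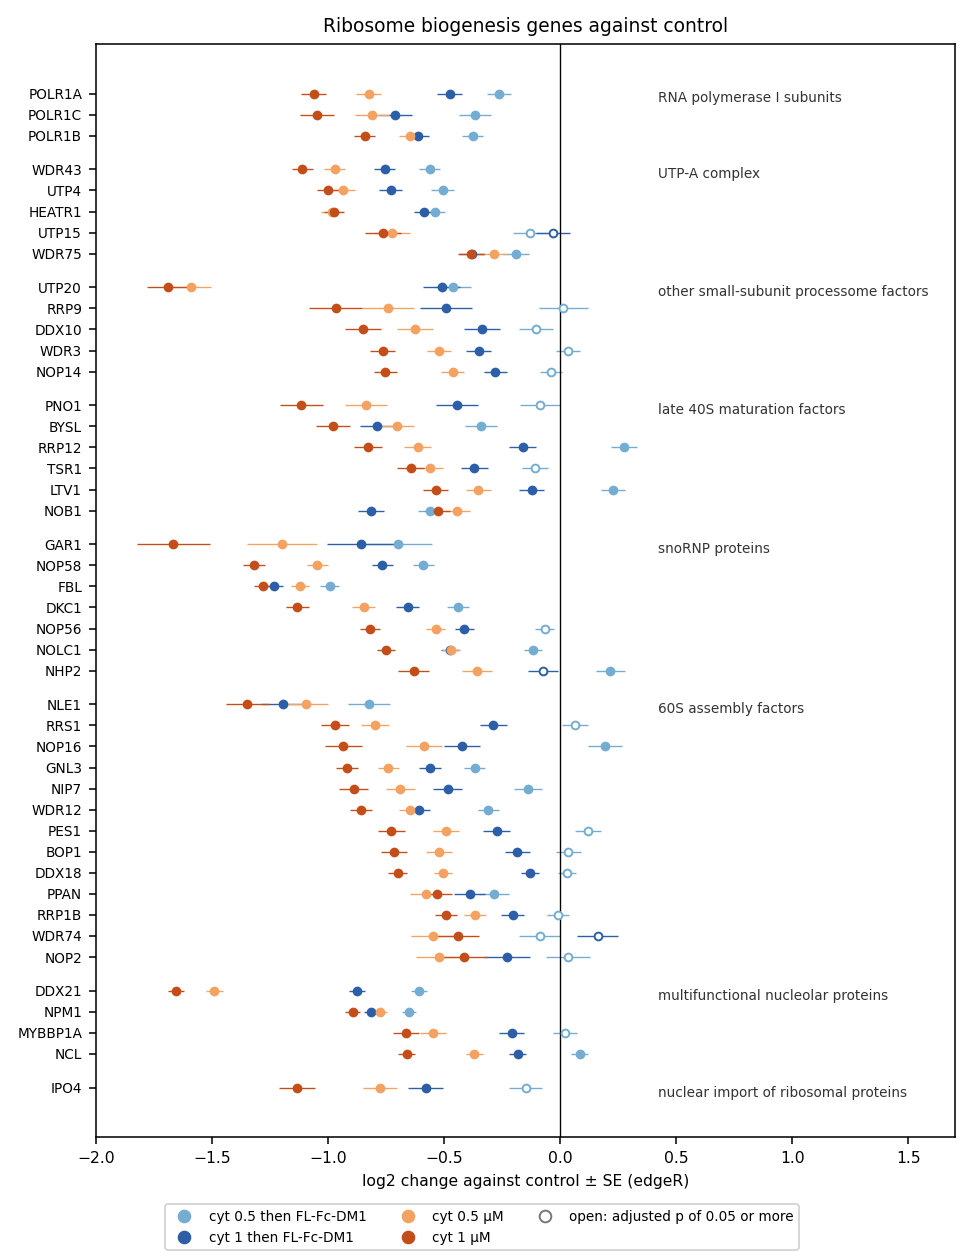
Log2 change against control (x axis, ± SE from edgeR) of each of the 44 genes (y axis), grouped by role and ordered within a role by the change in cytarabine at 1 µM. Blue points are FL-Fc-DM1 groups and orange points cytarabine groups, and open points have an adjusted p of 0.05 or more. Cytarabine points all lie left of 0, while FL-Fc-DM1 points after 0.5 µM reach or pass 0 for many genes and stay near the cytarabine points for FBL, NPM1, NLE1, NOB1 and WDR75.

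The 3 subunits of RNA polymerase I were all lower with cytarabine than in control. Their means in the FL-Fc-DM1 groups lay between the matching cytarabine group and control. POLR1A, the largest subunit, had 122, 113 and 112 CPM in FL-Fc-DM1 after 0.5 µM and 101, 92.00 and 107 CPM in FL-Fc-DM1 after 1 µM. POLR1A had 78.4, 79.4 and 77.7 CPM in cytarabine at 0.5 µM, 63.3, 66.1 and 70.7 CPM in cytarabine at 1 µM and 136, 146 and 135 CPM in control. None of these 5 groups overlapped another. POLR1A fell by 0.82 ± 0.05 (SE, adjusted p = 2.4e-13) at 0.5 µM and by 1.06 ± 0.05 (adjusted p = 1.4e-15) at 1 µM on the log2 scale, and was higher by 0.56 (adjusted p = 6.7e-09) and 0.59 (adjusted p = 5.9e-09) in FL-Fc-DM1 after 0.5 µM and 1 µM than in the matching cytarabine group. POLR1B, the other large catalytic subunit, had 121, 119 and 129 CPM in FL-Fc-DM1 after 0.5 µM and 109.9, 99.98 and 103 CPM in FL-Fc-DM1 after 1 µM. POLR1B had 102, 97.1 and 106 CPM in cytarabine at 0.5 µM, 89.8, 85.5 and 91.4 CPM in cytarabine at 1 µM and 165, 157 and 157 CPM in control. Its control libraries stood above all treated ones, and the FL-Fc-DM1 libraries after 1 µM overlapped those of cytarabine at 0.5 µM. POLR1C, a subunit shared with RNA polymerase III, moved likewise, with log2 changes of -0.81 and -1.05 in cytarabine at 0.5 and 1 µM against control.

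The UTP-A complex, which binds the precursor first and couples its transcription to processing, fell by medians of 0.93 and 0.97 on the log2 scale with cytarabine at 0.5 and 1 µM. WDR43 had 136, 129.7 and 133 CPM in FL-Fc-DM1 after 0.5 µM and 118, 120.4 and 110.3 CPM in FL-Fc-DM1 after 1 µM. WDR43 had 100.4, 97.9 and 102 CPM in cytarabine at 0.5 µM, 90.8, 97.5 and 84.4 CPM in cytarabine at 1 µM and 197, 195 and 197 CPM in control. The groups of WDR43 did not overlap, and its log2 change against control was -0.97 ± 0.04 (adjusted p = 2.2e-16) at 0.5 µM cytarabine and -1.11 ± 0.05 (adjusted p = 1.2e-17) at 1 µM. HEATR1 (-0.98 and -0.97) and UTP4 (-0.93 and -0.9981) fell about as far at 0.5 and 1 µM. UTP15 came closest to control in this complex, with log2 changes of -0.13 and -0.03 in FL-Fc-DM1 after 0.5 and 1 µM against control, both not called (adjusted p = 0.123 and 0.735). WDR75 had the smallest fall of the whole set and was not called between FL-Fc-DM1 and cytarabine (0.10 and 0.00, adjusted p = 0.178 and 0.956, after 0.5 and 1 µM).

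Among the other factors of the small-subunit processome, UTP20, a large scaffold protein, had the largest fall with cytarabine and the largest rise with FL-Fc-DM1 of the set. It had 48.1, 46.1 and 43.2 CPM in FL-Fc-DM1 after 0.5 µM and 46.9, 42.8 and 43.01 CPM in FL-Fc-DM1 after 1 µM. UTP20 had 18.7, 20.6 and 23.5 CPM in cytarabine at 0.5 µM, 21.9, 20.2 and 16.1 CPM in cytarabine at 1 µM and 65.6, 63.96 and 59.5 CPM in control. The FL-Fc-DM1 libraries stood between cytarabine and control without overlap, and the doses overlapped within each treatment. UTP20 rose by 1.13 ± 0.09 (adjusted p = 2.2e-10) and 1.18 ± 0.09 (adjusted p = 1.1e-10) with FL-Fc-DM1 after 0.5 and 1 µM, and was still called lower than control (-0.46 and -0.51). NOP14, a core factor of the same particle, had 107, 108 and 99.8 CPM in FL-Fc-DM1 after 0.5 µM and 84.5, 94.02 and 88.1 CPM in FL-Fc-DM1 after 1 µM. NOP14 had 74.6, 80.4 and 80.1 CPM in cytarabine at 0.5 µM, 66.01, 63.4 and 62.6 CPM in cytarabine at 1 µM and 107, 107 and 109 CPM in control. Its FL-Fc-DM1 libraries after 0.5 µM overlapped control (log2 change -0.04 ± 0.05, adjusted p = 0.47). RRP9, a protein of the U3 snoRNP, WDR3 and the RNA helicase DDX10 were also not called against control in that group, with log2 changes of 0.01, 0.04 and -0.10.

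The late factors of the 40S subunit held genes that stood above control in FL-Fc-DM1 after 0.5 µM and a gene that was lower still with FL-Fc-DM1 after 1 µM. RRP12, which helps to export pre-40S particles, had 68.8, 68.9 and 65.3 CPM in FL-Fc-DM1 after 0.5 µM and 49.5, 50.7 and 49.7 CPM in FL-Fc-DM1 after 1 µM. RRP12 had 37.5, 34.2 and 37.9 CPM in cytarabine at 0.5 µM, 31.9, 29.5 and 32.9 CPM in cytarabine at 1 µM and 54.9, 58.1 and 54.9 CPM in control. Its FL-Fc-DM1 libraries after 0.5 µM lay above control, and no groups overlapped. LTV1, a factor released in late 40S maturation, had 107, 113 and 98.8 CPM in FL-Fc-DM1 after 0.5 µM and 80.5, 86.3 and 82.98 CPM in FL-Fc-DM1 after 1 µM. LTV1 had 73.2, 70.8 and 68.9 CPM in cytarabine at 0.5 µM, 63.97, 65.3 and 58.1 CPM in cytarabine at 1 µM and 91.9, 88.2 and 91.7 CPM in control. The groups of LTV1 did not overlap either, and FL-Fc-DM1 after 0.5 µM was above control by 0.27 ± 0.06 (adjusted p = 1.0e-04) for RRP12 and 0.23 ± 0.05 (adjusted p = 3.7e-04) for LTV1. After 1 µM both stood a little under control (-0.16 for RRP12, -0.12 for LTV1), and neither call was stable. That of RRP12 was lost without control replicate 2 (adjusted p = 0.069). That of LTV1 was lost in a fit of only these groups (adjusted p = 0.0792), without FL-Fc-DM1 replicate 1 or 3 (0.132 and 0.0563) and without control replicate 1 or 3 (0.102 and 0.0991).

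NOB1, the endonuclease that cuts the 3′ end of 18S rRNA, had 59.9, 60.5 and 64.1 CPM in FL-Fc-DM1 after 0.5 µM and 48.4, 51.4 and 54.9 CPM in FL-Fc-DM1 after 1 µM. NOB1 had 62.5, 69.9 and 68.00 CPM in cytarabine at 0.5 µM, 60.8, 63.9 and 64.4 CPM in cytarabine at 1 µM and 89.2, 91.97 and 91.1 CPM in control. Its FL-Fc-DM1 libraries after 1 µM were all below those of cytarabine at 1 µM (log2 change -0.29 ± 0.06, adjusted p = 2.3e-04), and after 0.5 µM the change was -0.12 (adjusted p = 0.092). PNO1 is the partner of NOB1 on the pre-40S particle. It had 38.5, 39.3 and 38.9 CPM in FL-Fc-DM1 after 0.5 µM and 26.6, 30.3 and 34.2 CPM in FL-Fc-DM1 after 1 µM. PNO1 had 25.6, 19.8 and 23.97 CPM in cytarabine at 0.5 µM, 20.3, 17.01 and 19.6 CPM in cytarabine at 1 µM and 44.02, 39.8 and 40.1 CPM in control. PNO1 libraries of FL-Fc-DM1 lay above those of cytarabine and, after 0.5 µM, just under control. PNO1 was higher by 0.75 and 0.67 with FL-Fc-DM1 after 0.5 and 1 µM than with cytarabine (adjusted p = 2.9e-07 and 4.2e-06).

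The snoRNP proteins held the gene furthest under control in both FL-Fc-DM1 groups. FBL had 141, 141 and 135 CPM in FL-Fc-DM1 after 0.5 µM and 115, 116 and 122 CPM in FL-Fc-DM1 after 1 µM. FBL had 123, 135 and 124 CPM in cytarabine at 0.5 µM, 117, 110.1 and 115 CPM in cytarabine at 1 µM and 280.1, 273 and 277 CPM in control. Control stood far above all treated libraries, and FL-Fc-DM1 after 1 µM overlapped cytarabine at 1 µM. FBL fell by 1.12 ± 0.04 (adjusted p = 7.8e-19) and 1.28 ± 0.04 (adjusted p = 4.4e-20) with cytarabine at 0.5 and 1 µM, and the change with FL-Fc-DM1 was 0.13 ± 0.04 (adjusted p = 0.016) after 0.5 µM and 0.05 ± 0.04 (adjusted p = 0.413) after 1 µM. NOP56 and NOP58, its partners in the box C/D particle, rose by 0.47 and 0.46 after 0.5 µM and by 0.41 and 0.55 after 1 µM.

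In the box H/ACA particle, which makes pseudouridine, GAR1 fell furthest, at counts that were among the lowest of the set. GAR1 had 19.2, 22.04 and 20.9 CPM in FL-Fc-DM1 after 0.5 µM and 14.5, 22.96 and 18.1 CPM in FL-Fc-DM1 after 1 µM. GAR1 had 14.2, 16.8 and 12.8 CPM in cytarabine at 0.5 µM, 9.47, 14.5 and 7.92 CPM in cytarabine at 1 µM and 28.6, 36.4 and 35.9 CPM in control. Control stood above all treated libraries of GAR1, and FL-Fc-DM1 after 1 µM just overlapped cytarabine at 1 µM. Its rise with FL-Fc-DM1 after 0.5 µM (0.50 ± 0.16, adjusted p = 0.013) was lost without cytarabine 0.5 µM replicate 3 (adjusted p = 0.0591) and by DESeq2 (adjusted p = 0.0566). NHP2, a partner of GAR1, had 64.5, 68.4 and 67.7 CPM in FL-Fc-DM1 after 0.5 µM and 50.5, 54.8 and 58.7 CPM in FL-Fc-DM1 after 1 µM. NHP2 had 43.6, 44.1 and 47.1 CPM in cytarabine at 0.5 µM, 38.3, 34.5 and 38.6 CPM in cytarabine at 1 µM and 58.9, 53.1 and 60.4 CPM in control. In FL-Fc-DM1 after 0.5 µM all NHP2 libraries were above control, by 0.22 ± 0.06 (adjusted p = 0.0035), while GAR1 stayed below control (log2 change -0.70 ± 0.14, adjusted p = 1.4e-04). The call of NHP2 was lost by limma on TPM (adjusted p = 0.128). DKC1, the pseudouridine synthase itself, stood between them (-0.44), and the chaperone NOLC1 was at -0.12, a call lost without control replicate 2 (adjusted p = 0.0664).

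Of the 13 factors of 60S assembly, 13 were called higher with FL-Fc-DM1 after 0.5 µM and 10 after 1 µM than in the matching cytarabine group. Of all tested genes, 22.0% and 23.5% were called higher in these comparisons. GNL3, the nucleolar GTPase nucleostemin, had 135, 141 and 145 CPM in FL-Fc-DM1 after 0.5 µM and 112, 125 and 132 CPM in FL-Fc-DM1 after 1 µM. GNL3 had 107, 113 and 106 CPM in cytarabine at 0.5 µM, 95.4, 97.8 and 94.7 CPM in cytarabine at 1 µM and 185, 180.4 and 178 CPM in control. Control lay above all treated libraries of GNL3, and FL-Fc-DM1 after 1 µM overlapped cytarabine at 0.5 µM. NLE1, whose yeast counterpart is a substrate of the AAA ATPase that remodels pre-60S particles, had 26.9, 29.3 and 26.1 CPM in FL-Fc-DM1 after 0.5 µM and 19.3, 20.2 and 24.1 CPM in FL-Fc-DM1 after 1 µM. NLE1 had 23.6, 23.5 and 20.99 CPM in cytarabine at 0.5 µM, 22.1, 18.5 and 16.1 CPM in cytarabine at 1 µM and 46.1, 48.3 and 50.9 CPM in control. Treated libraries of NLE1 all lay far under control, at -0.82 and -1.19 in FL-Fc-DM1 after 0.5 and 1 µM, and its rise after 0.5 µM (0.27, adjusted p = 0.028) was lost without FL-Fc-DM1 replicate 2 (adjusted p = 0.0869) or cytarabine replicate 3 (adjusted p = 0.101). PES1, BOP1 and WDR12, the 3 proteins of the PeBoW complex needed for 28S rRNA maturation, rose by 0.61, 0.56 and 0.34 after 0.5 µM and by 0.45, 0.53 and 0.25 after 1 µM. After 0.5 µM, PES1 and BOP1 were not called against control (0.12 and 0.04) while WDR12 was called lower (-0.31).

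NOP16 had 51.7, 52.1 and 52.05 CPM in FL-Fc-DM1 after 0.5 µM and 34.8, 35.1 and 31.6 CPM in FL-Fc-DM1 after 1 µM. NOP16 had 26.9, 33.3 and 30.5 CPM in cytarabine at 0.5 µM, 22.3, 21.9 and 27.3 CPM in cytarabine at 1 µM and 45.1, 45.98 and 45.2 CPM in control. The FL-Fc-DM1 libraries after 0.5 µM were all above control (0.20 ± 0.07, adjusted p = 0.021), a call lost without control replicate 1 or 3 (adjusted p = 0.0592 and 0.0565) or any FL-Fc-DM1 replicate (0.058, 0.0673 and 0.0632). NOP16 also had the largest difference between the FL-Fc-DM1 groups, -0.62 ± 0.08 (1 µM against 0.5 µM, adjusted p = 1.4e-06). WDR74, an early 60S factor, went the other way between these groups. It had 34.9, 31.5 and 31.9 CPM in FL-Fc-DM1 after 0.5 µM and 42.8, 38.8 and 35.3 CPM in FL-Fc-DM1 after 1 µM. WDR74 had 24.2, 22.6 and 24.7 CPM in cytarabine at 0.5 µM, 30.02, 21.5 and 25.1 CPM in cytarabine at 1 µM and 34.2, 33.8 and 36.4 CPM in control. The FL-Fc-DM1 libraries after 1 µM were above those after 0.5 µM by 0.25 ± 0.09 (adjusted p = 0.043), a call lost by DESeq2 (adjusted p = 0.0583) and without FL-Fc-DM1 replicate 1, 2 or 3 after 0.5 µM (adjusted p = 0.0534, 0.163 and 0.132) or replicate 1 or 2 after 1 µM (0.201 and 0.0789). In the authors' TPM the same gene had 115, 97.5 and 82.1 TPM in FL-Fc-DM1 after 1 µM and 59.9, 43.5 and 50.3 TPM in FL-Fc-DM1 after 0.5 µM. WDR74 had 65.9, 41.5 and 49.1 TPM in cytarabine at 1 µM, 37.9, 33.4 and 34.4 TPM in cytarabine at 0.5 µM and 52.3, 49.9 and 53.7 TPM in control. On this scale cytarabine at 1 µM overlapped control, and the fall called from counts was lost (log2 change -0.02, adjusted p = 0.918 by limma). WDR74 shares exons with the small nuclear RNA gene RNU2-2P on the same strand in GENCODE release 29, and the part of this overlap in its values was not tested.

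Of the multifunctional nucleolar proteins, NPM1 and NCL gave the highest levels of the set and made up 35.0% of its counts. DDX21 and MYBBP1A, of the same role, had control means of 257 and 33.6 TPM, beside 673 TPM for NCL. NPM1, a nucleolar scaffold and chaperone often mutated in acute myeloid leukemia, had 1143, 1175 and 1156 CPM in FL-Fc-DM1 after 0.5 µM and 1026, 1077 and 999 CPM in FL-Fc-DM1 after 1 µM. NPM1 had 1040, 1071 and 1072 CPM in cytarabine at 0.5 µM, 985, 1007 and 945 CPM in cytarabine at 1 µM and 1795, 1872 and 1785 CPM in control. All treated libraries lay within a narrow band far under control. NPM1 was higher with FL-Fc-DM1 by 0.13 ± 0.03 (adjusted p = 0.002) after 0.5 µM and by 0.08 ± 0.03 (adjusted p = 0.047) after 1 µM. The call after 1 µM was lost with total counts (adjusted p = 0.0606), in a fit of only these groups (0.142), and without cytarabine replicate 1 or 3 (0.0715 and 0.223) or FL-Fc-DM1 replicate 2 (0.14). NPM1 has processed pseudogenes, and the handling of reads shared with them is not stated, so its level is uncertain.

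NCL, nucleolin, had 924, 980.0 and 943 CPM in FL-Fc-DM1 after 0.5 µM and 788, 819.8 and 758 CPM in FL-Fc-DM1 after 1 µM. NCL had 669, 716 and 694 CPM in cytarabine at 0.5 µM, 553, 594 and 552 CPM in cytarabine at 1 µM and 885, 924 and 876 CPM in control. All NCL groups were apart, although FL-Fc-DM1 after 0.5 µM nearly touched control, at a log2 change of 0.08 beside -0.65 for NPM1. The call of NCL above control (adjusted p = 0.041) was lost with DESeq2 size factors (0.0509), total counts (0.127) and no low-count filter (0.116), and without control replicate 1 or 3 (0.122 and 0.151) or FL-Fc-DM1 replicate 1, 2 or 3 (0.0516, 0.305 and 0.0958). DDX21, an RNA helicase of rRNA transcription and processing, had 414, 433 and 423 CPM in FL-Fc-DM1 after 0.5 µM and 350.3, 344 and 362 CPM in FL-Fc-DM1 after 1 µM. DDX21 had 224, 234 and 231 CPM in cytarabine at 0.5 µM, 195, 213 and 208 CPM in cytarabine at 1 µM and 654, 646 and 636 CPM in control. None of its 5 groups overlapped another. DDX21 fell by 1.49 ± 0.04 (adjusted p = 1.1e-22) and 1.65 ± 0.04 (adjusted p = 1.1e-23) with cytarabine at 0.5 and 1 µM, and was higher by 0.88 and 0.78 with FL-Fc-DM1. IPO4, an importin that carries cargo into the nucleus, had 40.4, 43.9 and 41.9 CPM in FL-Fc-DM1 after 0.5 µM and 29.5, 31.3 and 32.8 CPM in FL-Fc-DM1 after 1 µM. IPO4 had 29.6, 24.7 and 27.4 CPM in cytarabine at 0.5 µM, 23.3, 20.6 and 19.5 CPM in cytarabine at 1 µM and 45.5, 46.5 and 47.7 CPM in control. IPO4 was highest in control and next in FL-Fc-DM1 after 0.5 µM, and FL-Fc-DM1 after 1 µM overlapped cytarabine at 0.5 µM at its edge. With FL-Fc-DM1 it was higher by 0.63 ± 0.08 (adjusted p = 2.5e-07, and 0.0819 by limma on TPM) after 0.5 µM and 0.55 ± 0.08 (adjusted p = 5.1e-06) after 1 µM.

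**Figure D3:**
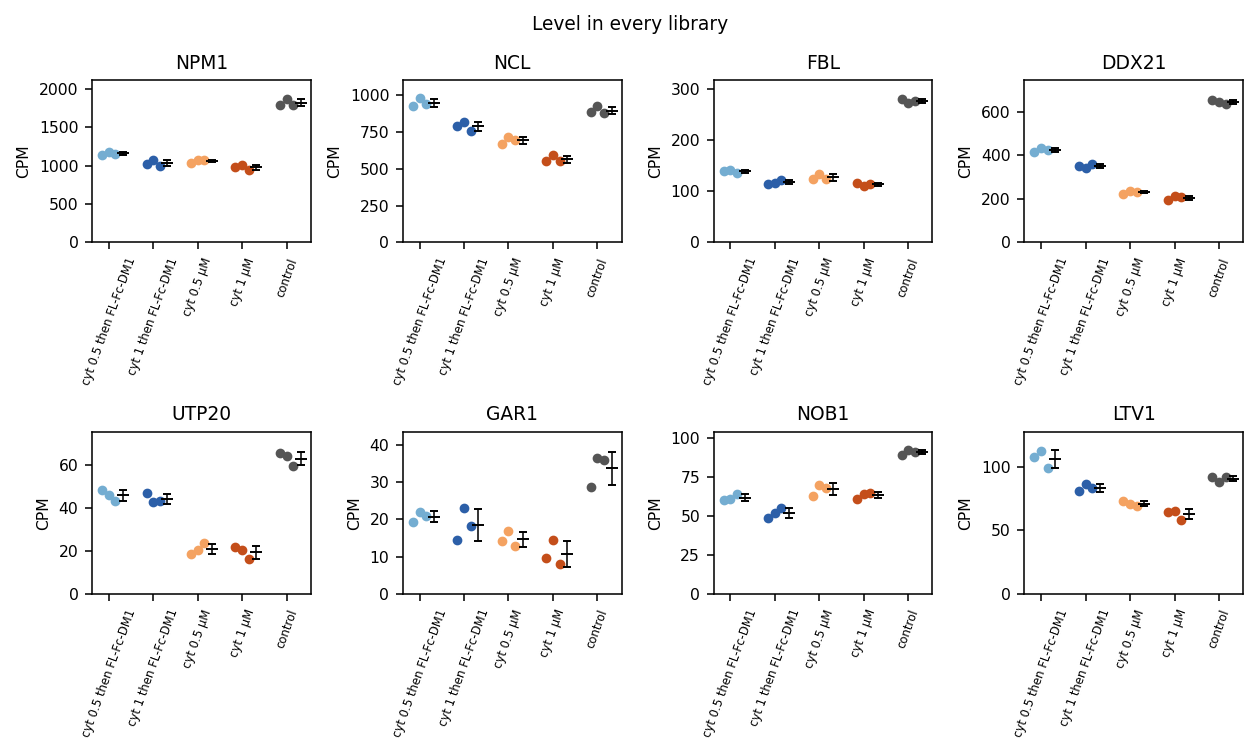
Level in every library (y axis, CPM from 0) of 8 genes in the 5 groups (x axis), with a point per library and the mean ± SD (n = 3) in black beside it. FL-Fc-DM1 libraries of UTP20 and DDX21 stand between cytarabine and control, those of NPM1 and FBL stay near cytarabine, those of NCL and LTV1 after 0.5 µM reach or pass control, and those of NOB1 after 1 µM lie under cytarabine.

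Many of the genes were lower at the higher dose of cytarabine. With 1 µM, 26 of 44 genes were called lower than with 0.5 µM and none higher, where 10.3% of tested genes were called lower and 9.08% higher, and the median log2 change was -0.20. By limma on TPM, 15 were called lower and 1 (WDR74) higher. In FL-Fc-DM1 after 1 µM, 37 genes were called lower than in FL-Fc-DM1 after 0.5 µM and 1 (WDR74) higher, where 14.0% of tested genes were called lower and 14.3% higher, with a median of -0.25. By limma on TPM, 21 were called lower and 1 (WDR74) higher. Whether the FL-Fc-DM1 change itself differed between the doses was tested as the difference of the changes (1 µM minus 0.5 µM). No gene of the 44 was called, where 0.931% of tested genes were called lower and 2.14% higher. The lowest adjusted p of the 44 was 0.199. An unadjusted p under 0.05 was found for 7 of the 44 genes and for 1907 of all 12355 tested genes, a similar share. DESeq2 and the other fits that used the low-count filter called none of the 44 either. The differences had a median of -0.08 with a median SE of 0.08, so a gene at that SE has a 95% interval of 0.18 to either side.

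Genes of the same pathway outside the set moved mostly in the same direction, with medians nearer 0. Of 155 such genes in 8 lists, 117 were called lower and 9 higher with cytarabine at 0.5 µM (median -0.40), and 127 lower and 7 higher at 1 µM (median -0.53). Of all tested genes, 35.2% were called lower and 38.0% higher at 0.5 µM, and 36.6% lower and 39.3% higher at 1 µM. With FL-Fc-DM1, 104 were called higher and 8 lower after 0.5 µM (median 0.32), and 100 higher and 7 lower after 1 µM (median 0.25), against the same cytarabine groups. Of all tested genes, 22.0% were called higher and 22.8% lower after 0.5 µM, and 23.5% higher and 22.2% lower after 1 µM. The other 36 processome factors gave 33 higher and none lower with FL-Fc-DM1 after 0.5 µM, and 31 lower and 1 higher with cytarabine at 0.5 µM. DCAF13, among their highest in TPM, fell by 0.91 with cytarabine at 0.5 µM and rose by 0.50 with FL-Fc-DM1, while RRP36 was called higher in both (0.30 and 0.22). The other 40 factors of 60S assembly gave 31 higher and 3 lower with FL-Fc-DM1 after 0.5 µM, and 33 lower and 2 higher with cytarabine at 0.5 µM. Their most abundant genes by TPM, NOP53 and RSL1D1, were called lower with FL-Fc-DM1 after 0.5 µM (-0.20 and -0.23).

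The other lists were less uniform, and their counts are to be read against the same shares of all tested genes. Among 18 other subunits and initiation factors of RNA polymerase I, 8 were called higher and 1 lower with FL-Fc-DM1 after 0.5 µM, and 12 lower and 1 higher with cytarabine at 0.5 µM. POLR1D, which RNA polymerases I and III share, was the lower one with FL-Fc-DM1 (-0.23) and was not called with cytarabine at 0.5 µM (-0.04, adjusted p = 0.33). In TPM its mean was 231 in FL-Fc-DM1 after 0.5 µM, 258 in cytarabine at 0.5 µM and 334 in control. The small change with cytarabine thus holds for counts and not for TPM. Among 13 genes of the RNA exosome and its cofactors, 6 were called higher and 1 lower with FL-Fc-DM1 after 0.5 µM, and 10 lower and 1 higher with cytarabine at 0.5 µM. EXOSC8, a ring subunit of the exosome, was lower by 1.499 with cytarabine at 0.5 µM than in control. With FL-Fc-DM1 after 0.5 µM it was lower by 0.16 than with that cytarabine (adjusted p = 0.017). This further fall was not seen in TPM, with means of 53.7 in FL-Fc-DM1 after 0.5 µM and 53.4 in cytarabine at 0.5 µM. It was not seen at the other dose either, with means of 59.7 CPM in FL-Fc-DM1 after 1 µM and 58.7 CPM in cytarabine at 1 µM. Among 16 genes of export and cytoplasmic maturation, 5 were called higher and 2 lower with FL-Fc-DM1 after 0.5 µM, and 8 lower and 2 higher with cytarabine at 0.5 µM, the higher ones being the export receptor XPO1 (0.14) and TSR3 (0.52). For the export list, 5 of 16 higher with FL-Fc-DM1 lies somewhat above the 22.0% of all tested genes. The 8 of 16 lower with cytarabine likewise lies above 35.2%. Calls against these directions, 2 of 16 in each comparison, lie under the 22.8% lower with FL-Fc-DM1 and the 38.0% higher with cytarabine. No result about a list of 16 genes is drawn from these counts. The 11 other snoRNP proteins gave 7 higher and none lower with FL-Fc-DM1 after 0.5 µM, and 6 lower and none higher with cytarabine at 0.5 µM. Subunits of RNase MRP and RNase P (10 genes) gave 7 higher and none lower, and 9 lower and 1 higher, in the same comparisons, and those of RNA polymerase III (12 genes, POLR1D among them) gave 7 higher and 2 lower, and 8 lower and 1 higher.

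**Figure D4:**
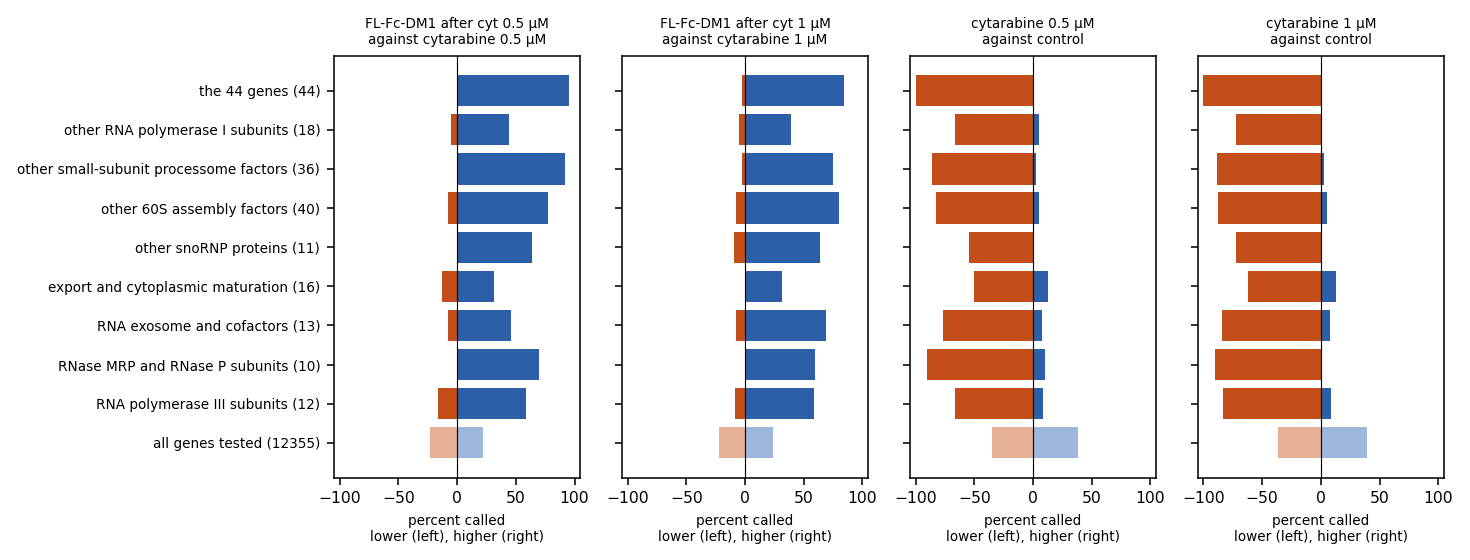
Percent of the genes of each list (y axis, number tested in brackets) called higher (right, blue) or lower (left, orange) in 4 comparisons (panels), with all 12355 tested genes in pale colours at the bottom. The 44 genes are called higher in 42 and 37 cases with FL-Fc-DM1 and lower in 44 and 44 cases with cytarabine, and the other lists differ in how far they exceed all tested genes.

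MYC and the proliferation marker MKI67 moved with these genes. MYC had 353, 351 and 354 CPM in FL-Fc-DM1 after 0.5 µM and 247, 242 and 253 CPM in FL-Fc-DM1 after 1 µM. MYC had 285, 275 and 299 CPM in cytarabine at 0.5 µM, 228, 216 and 228 CPM in cytarabine at 1 µM and 633, 638 and 639.9 CPM in control. It fell by 1.15 and 1.51 on the log2 scale with cytarabine at 0.5 and 1 µM, and was higher by 0.30 (adjusted p = 8.7e-08) and 0.14 (adjusted p = 0.002) with FL-Fc-DM1. MKI67 had 95.8, 101 and 91.01 CPM in FL-Fc-DM1 after 0.5 µM and 109.9, 109 and 110.0 CPM in FL-Fc-DM1 after 1 µM. MKI67 had 65.4, 71.4 and 73.5 CPM in cytarabine at 0.5 µM, 64.04, 57.7 and 60.3 CPM in cytarabine at 1 µM and 389, 387 and 367 CPM in control. In FL-Fc-DM1 after 0.5 µM, MKI67 stood at 25.2% of its control mean and MYC at 55.4%, beside 91.1% for the median of the 44 genes. MKI67 was higher after 1 µM than after 0.5 µM, unlike most of the 44 genes. After 1 µM, MKI67 was at 28.8%, MYC at 38.8% and the 44 genes at 72.8%. The 12 markers of the monocytic line also moved, in both directions. With FL-Fc-DM1 against cytarabine, 4 were called higher and 5 lower after 0.5 µM, and 3 higher and 4 lower after 1 µM. The shares of all tested genes were 22.0% higher and 22.8% lower after 0.5 µM, and 23.5% higher and 22.2% lower after 1 µM. With cytarabine against control, 8 were called higher and 4 lower at each dose. Here the shares were 38.0% higher and 35.2% lower at 0.5 µM, and 39.3% higher and 36.6% lower at 1 µM. FLT3, HOXA9, MEIS1 and ITGAM were called lower with FL-Fc-DM1 after 0.5 µM (-0.60, -0.30, -0.54 and -0.93) and after 1 µM (-0.74, -0.42, -0.48 and -1.15). ITGAM still stood at 1243% and 808% of its control mean in FL-Fc-DM1 after 0.5 and 1 µM. In the other direction, CD33 had a mean of 151 CPM in FL-Fc-DM1 after 0.5 µM, beside 114 CPM in cytarabine at 0.5 µM. CD33 was not higher in FL-Fc-DM1 after 1 µM, at 110.6 CPM beside 111.1 CPM in cytarabine at 1 µM. Lysozyme had 15421 CPM in FL-Fc-DM1 after 0.5 µM beside 8624 CPM in cytarabine at 0.5 µM. For 1 µM its means were 13655 and 6597 CPM. Lysozyme (LYZ) made up most of the summed level in the treated groups, which was 16524 to 17260 CPM in FL-Fc-DM1 after 0.5 µM, 14845 to 15310 CPM in FL-Fc-DM1 after 1 µM, 10029 to 10528 CPM in cytarabine at 0.5 µM, 8149 to 8431 CPM in cytarabine at 1 µM and 1601 to 1640 CPM in control. Without LYZ the sum was 1412 to 1453 CPM in FL-Fc-DM1 after 0.5 µM, 1287 to 1398 CPM in FL-Fc-DM1 after 1 µM, 1720 to 1729 CPM in cytarabine at 0.5 µM, 1625 to 1685 CPM in cytarabine at 1 µM and 1235 to 1256 CPM in control. The part of MYC, of proliferation or of these markers in the results was not tested.

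Genes with an E-box in the promoter window had a median log2 change of -0.77 with cytarabine at 0.5 µM and -0.998 at 1 µM (17 genes), beside -0.61 and -0.83 in the 20 genes without one. With FL-Fc-DM1 the medians were 0.55 after 0.5 µM and 0.45 after 1 µM with an E-box, beside 0.45 and 0.41 without. These medians are given with no test.

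**Figure D5:**
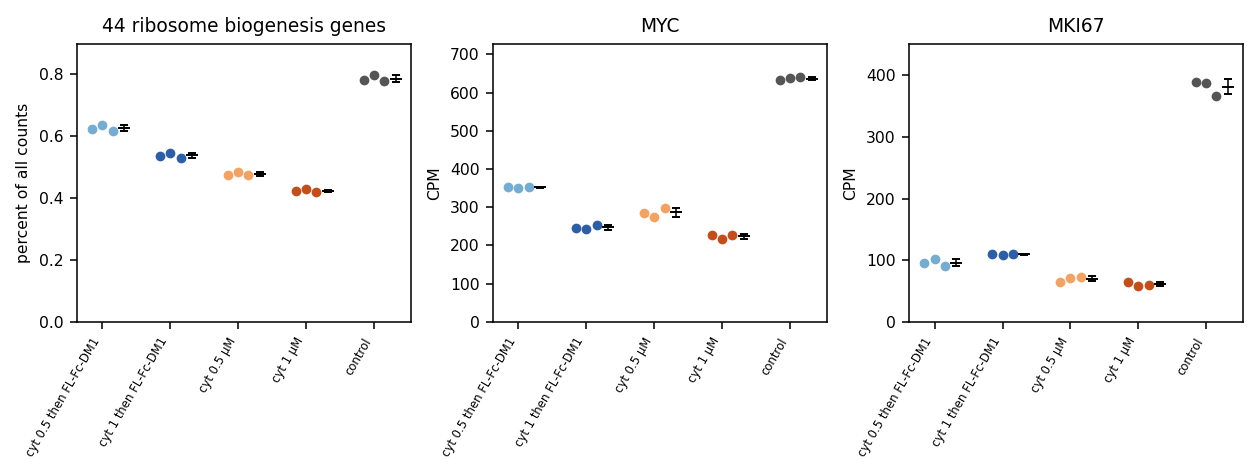
Share of all counts taken by the 44 genes (left, percent), and levels of MYC (middle, CPM) and MKI67 (right, CPM), in every library of the 5 groups (x axis), with the mean ± SD (n = 3) in black. The share of the 44 genes in FL-Fc-DM1 stands between cytarabine and control, whereas MKI67 stays far under control in all treated groups.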

How the data were processed

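Polyadenylated RNA of 15 Molm-13 libraries, 5 groups of 3 by the labels' titles, was read by Illumina sequencing. Tools listed in the submitters' processing notes, without roles, are edgeR, DESeq2, StringTie 1.3.1, HISAT2 and fastp 0.18.0. Genome build, annotation, counter and strand were not given in the sources used here. Reads shared with an overlapping or antisense gene therefore cannot be told apart, and 28 of the 44 genes have an exon that overlaps another gene in GENCODE release 29, PPAN by a readthrough with P2RY11.

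The deposited table holds the authors' estimated counts per gene, 9.63% to 11.3% of them per library not whole (tolerance 0.01), and the authors' TPM. Counts were rounded, genes passed filterByExpr (minimum count 10, minimum total 15), and edgeR 4.0.16 (R 4.3.3) with TMM scaling fitted 12355 genes in 1 model of the 15 libraries (10 residual degrees of freedom). The fit was tested on simulated data. TPM served for levels and, as log2(TPM + 1), for limma 3.58.1 as an alternative. Further alternatives were DESeq2 1.42.0, other scalings, no filter, fewer groups, the replicate number as a block, a 2-fold threshold and each library left out. Depth per library is given with the results, and the counts of each gene limit its precision.

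The 44 genes and the lists were chosen with earlier results of these data known. Library values are given for the gene of highest mean TPM and of largest mean cytarabine change in each role, for genes called against the majority, and for NPM1, NCL and FBL. Of other lists, the 2 most abundant genes and the 2 largest against the majority could be named.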

Additional observations from a re-analysis of the deposited data

How the results depend on the processing

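Of 300 calls of single genes over the 9 comparisons, 253 held under every other fit, scaling, filter and left-out library, 47 were lost under at least 1 of these and none reversed. With a 2-fold threshold added, 22 of the 300 remained. Limma on log2(TPM + 1) lost 40, the fit of only the groups compared 6, DESeq2 5, total counts 4, DESeq2 size factors 1 and no low-count filter 1. Of genes given with library values, and beside NHP2 and IPO4 and the comparisons of doses, limma on TPM lost NCL and NOP16 of FL-Fc-DM1 after 0.5 µM against control (adjusted p = 0.787 and 0.137), RRP12 and LTV1 after 1 µM against control (0.126 and 0.0578), GAR1 and NLE1 after 0.5 µM against cytarabine (0.0541 and 0.12), NPM1 and POLR1B after 1 µM against cytarabine (0.0904 and 0.051), and WDR74 of cytarabine 1 µM against control (0.918). In the replicate block, 300 of 300 calls held. Same-numbered libraries hardly deviated together (median correlation 0.01, highest 0.088), beside a median of -0.0075 and a highest of 0.062 for different numbers. Whether equal numbers mark paired libraries is not stated, and these correlations cannot exclude it.

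The 22 calls past 2-fold were 6 (cytarabine 0.5 µM against control), 12 (1 µM), 1 and 1 (FL-Fc-DM1 against cytarabine), 0 and 0 (1 µM against 0.5 µM, cytarabine and FL-Fc-DM1), and 0 and 2 (FL-Fc-DM1 after 0.5 and 1 µM against control). No share of all tested genes past 2-fold stands beside these counts, and no result is drawn from them. Without the low-count filter the median change was -0.69 at 0.5 µM and -0.90 at 1 µM cytarabine, and 1 gene, lower, was called for the difference between doses. By limma on TPM the median at 0.5 µM cytarabine was -0.67, and 1 gene was called lower with FL-Fc-DM1 after 0.5 µM, as with total counts (1). For cytarabine at 1 µM against 0.5 µM it called 16 genes, 1 higher and 15 lower, with a median of -0.16, and 1354 genes of all. For FL-Fc-DM1 after 1 µM against 0.5 µM it called 22, of which 21 lower, with a median of -0.19, while DESeq2 called 0 higher. For the difference between doses it called 142 genes of all, with a median of -0.033. Against control it called 2 higher after 0.5 µM (median -0.17) and 1 higher after 1 µM. The cause of these shifts was not tested.

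Leaving out 1 library, the median ranged from -0.69 to -0.63 (cytarabine 0.5 µM), -0.89 to -0.85 (1 µM) and 0.47 to 0.51 (FL-Fc-DM1 after 0.5 µM against cytarabine). Higher calls ranged from 0 to 1 between the FL-Fc-DM1 groups, from 3 (without control replicate 1) to 6 for FL-Fc-DM1 after 0.5 µM against control, and from 0 to 1 (without FL-Fc-DM1 replicate 3) after 1 µM.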
